A study of Homo sapiens with 12 samples.

Results

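The genes that encode the cyclin-dependent kinase (CDK) inhibitors were followed in PANC-1 cells, a human pancreatic carcinoma line, after 24 h with an epigenetic and a mitotic-kinase inhibitor. The 7 genes CDKN1A, CDKN1B, CDKN1C, CDKN2A, CDKN2B, CDKN2C and CDKN2D were taken by symbol out of the 57773 genes of the count table. Of these, 5 had enough reads to be tested and the remaining 2, CDKN2A and CDKN2B, had no read in any library. Each of 4 groups held 3 RNA-seq libraries: cells given 30 nM chaetocin together with 90 nM MLN8237 (the combination), 30 nM chaetocin alone, 90 nM MLN8237 alone, and DMSO vehicle. Chaetocin is a fungal compound used as an inhibitor of the histone methyltransferase SUV39H1 that also acts on thioredoxin reductase, and MLN8237 (alisertib) inhibits the mitotic kinase Aurora A. The label of the combination spells the Aurora A inhibitor with a code that differs in its first digit, and it was read here as the same compound. All groups share 1 cell line, so differences between lines were not measured.

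CDK inhibitors are small proteins that bind cyclin-dependent kinases or their cyclin complexes and slow the cell cycle. The CIP/KIP family (CDKN1A encoding p21, CDKN1B encoding p27, CDKN1C encoding p57) binds cyclin-CDK complexes broadly, with the cyclin E and cyclin A complexes of CDK2 as the best known targets. The INK4 family (CDKN2A encoding p16, CDKN2B encoding p15, CDKN2C encoding p18, CDKN2D encoding p19) binds CDK4 and CDK6 and keeps D-type cyclins from activating them. CDKN2A lies next to CDKN2B on 9p21, is one of the genes most often lost in pancreatic cancer, and is known to be deleted in PANC-1.

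The DNA just upstream of each inhibitor gene is shown because the promoters are where signals to these genes converge and because the genes moved in different directions. In the RefSeq promoter table (GRCh38.p14), 6 of the 7 genes had at least 1 entry, and the 250 bases before a transcription start are printed here 5′ to 3′ on the gene's strand for the members that rose, fell or did not pass the test. Capitals mark GC boxes (GGGCGG) and CCAAT boxes (CCAAT) on either strand, the first being the letters bound by SP1-type factors and the second those bound by NF-Y. CDKN2D (chr19:10568980-10569229, minus strand) rose with chaetocin, CDKN2C (chr1:50968456-50968705, plus strand) fell, CDKN1A (chr6:36678464-36678713, plus strand) was high in 2 of 3 combination libraries, and CDKN1B (chr12:12717118-12717367, plus strand) passed no test.
CDKN2D: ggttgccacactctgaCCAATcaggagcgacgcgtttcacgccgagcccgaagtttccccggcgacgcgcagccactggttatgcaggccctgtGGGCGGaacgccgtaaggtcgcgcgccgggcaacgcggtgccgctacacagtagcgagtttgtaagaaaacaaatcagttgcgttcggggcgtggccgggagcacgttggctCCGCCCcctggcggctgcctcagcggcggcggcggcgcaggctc
CDKN2C: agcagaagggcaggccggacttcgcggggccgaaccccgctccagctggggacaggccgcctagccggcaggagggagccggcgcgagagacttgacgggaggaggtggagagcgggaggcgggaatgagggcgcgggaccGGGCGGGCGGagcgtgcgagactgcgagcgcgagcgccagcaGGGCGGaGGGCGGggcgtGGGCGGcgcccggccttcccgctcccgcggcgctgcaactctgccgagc
CDKN1A: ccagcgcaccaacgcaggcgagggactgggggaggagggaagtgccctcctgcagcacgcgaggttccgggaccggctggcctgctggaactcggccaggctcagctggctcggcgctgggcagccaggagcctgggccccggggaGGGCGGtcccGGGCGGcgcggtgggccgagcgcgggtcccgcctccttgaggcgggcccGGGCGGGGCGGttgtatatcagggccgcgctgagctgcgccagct
CDKN1B: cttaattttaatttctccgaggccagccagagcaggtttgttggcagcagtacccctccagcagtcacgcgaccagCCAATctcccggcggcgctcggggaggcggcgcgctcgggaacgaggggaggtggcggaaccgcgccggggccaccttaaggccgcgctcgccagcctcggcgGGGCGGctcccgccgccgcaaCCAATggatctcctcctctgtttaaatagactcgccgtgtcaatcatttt

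The printed window of CDKN2D held 2 GC boxes and 1 CCAAT box, that of CDKN1B held 1 GC box and 2 CCAAT boxes, and that of CDKN1A held 4 GC boxes and no CCAAT box. CDKN2C has 3 annotated starts, and the window with the most GC boxes, 5, is shown; the first start had neither motif and the third had 1 of each. Over all 35116 promoter windows of 250 bases, 42.6% held a GC box and 32.0% a CCAAT box, so these matches are common. The TATA box (TATAAA), the AP-1 site (TGANTCA), the cAMP response element (TGACGTCA) and the E2F site (TTTNGCGC) had no match in any window of these 6 genes on either strand, while the core of the antioxidant response element (TGACNNNGC, in 10.9% of all windows) had 1 match, in CDKN1B. The GC boxes of the CDKN1A and CDKN2C windows partly overlap each other, and a match describes letters only, since no binding was measured. In the printed windows GC content was 67.6% for CDKN2D, 77.2% for CDKN2C, 76.4% for CDKN1A and 64.4% for CDKN1B. The median over all windows was 58.0%. The CDKN2C windows that are not printed had 45.6% and 48.8%, below that median.

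The libraries held 49439795 to 63747510 counted reads, and 22831 genes passed the filter on low counts and were tested. The first principal component (59.9% of the variance) separated all 6 libraries with chaetocin from the 6 without it. Combination replicate 2 lay next to the chaetocin-alone libraries on that axis (-50.8, against -95.3 and -89.0 for combination replicates 1 and 3, and -46.4 to -37.3 for chaetocin alone), and on the second component (14.6%) the treated libraries numbered 3 stood apart, MLN8237 replicate 3 the farthest at -82.7. Nothing in the labels ties the 3 libraries of a group to separate cultures, so the p-values rest on a spread that may be partly or wholly technical. PANC-1 markers were abundant (KRT8, KRT18, KRT19 and VIM), whereas KRT7 was near 1 RPKM (reads scaled to gene length and library depth), and INS was at 0 throughout. The summed RPKM of the 5 PANC-1 markers was 954 to 1234 with the combination and 1288 to 1352 with chaetocin. It was 2113 to 2509 with MLN8237 and 2046 to 2202 with vehicle. VIM, which is not an epithelial marker, was the largest term, with means of 572, 704, 1033 and 960 RPKM in the same order. The sum of the 3 endothelial markers in the table was 0.154 to 0.489, 0.164 to 0.177, 0.00587 to 0.0215 and 0.0114 to 0.0268 in that order. The immune sum of 70.1 to 105 RPKM was carried by CD68, with PTPRC near 0. The fibroblast sum, carried by COL1A1, was 3.18 to 4.72 RPKM with the combination and 5.405 to 6.22 RPKM with chaetocin. With MLN8237 the fibroblast sum was 5.30 to 6.11 RPKM, and with vehicle 6.27 to 8.02 RPKM. The part of these sums in the changes of the inhibitor genes with chaetocin was not tested. Acinar and endocrine sums stayed at or below 0.247 RPKM in every library. In bulk RNA, fewer cells expressing a gene and less RNA per cell cannot be told apart.

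CDKN2D, the INK4 gene for p19, was higher in every library that had received chaetocin. Its level was 11.4, 10.3 and 12.6 CPM (counts scaled by TMM library size) in the combination libraries 1 to 3, 9.80, 10.7 and 11.1 in the chaetocin libraries, 6.69, 7.31 and 9.19 in the MLN8237 libraries and 7.34, 6.16 and 5.76 in the vehicle libraries. All 6 chaetocin-containing libraries lay above all 6 others, and MLN8237 replicate 3 was the highest of those 6. The group means were 11.4 ± 1.13 with the combination, 10.5 ± 0.643 with chaetocin, 7.73 ± 1.3 with MLN8237 and 6.42 ± 0.819 with vehicle (CPM, SD, n = 3 each). Relative to vehicle the log2 fold change was 0.83 ± 0.142 with the combination (SE; edgeR adjusted p = 0.000588) and 0.71 ± 0.142 with chaetocin (edgeR adjusted p = 0.00305). That corresponds to 1.78-fold (95% interval 1.44 to 2.21) with the combination and 1.64-fold (1.32 to 2.03) with chaetocin. CDKN2D encodes the INK4 protein whose level is known to vary over the cell cycle.

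CDKN2C, the INK4 gene for p18, moved the other way. The combination libraries held 42.6, 53.3 and 45.4 CPM, the chaetocin libraries 45.9, 46.9 and 45.9, the MLN8237 libraries 71.3, 75.2 and 83.2, and the vehicle libraries 67.9, 64.7 and 61.2. Every chaetocin-containing library lay below every other one, and every MLN8237 library lay above every vehicle library. The means were 47.1 ± 5.57 with the combination, 46.2 ± 0.606 with chaetocin, 76.6 ± 6.07 with MLN8237 and 64.6 ± 3.31 with vehicle (CPM, SD, n = 3 each). Against vehicle, CDKN2C fell by 0.46 on the log2 scale with the combination (0.73-fold, 95% interval 0.631 to 0.843; edgeR adjusted p = 0.00246) and fell by 0.48 with chaetocin (0.72-fold, 0.619 to 0.827; edgeR adjusted p = 0.00307). MLN8237 gave a log2 difference of 0.24 from vehicle that did not pass (edgeR adjusted p = 0.516), with an interval of 0.04 to 0.45. CDKN2C is a known E2F target, and it was the member with the highest level per length in vehicle.

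CDKN1C, the gene for p57, was the least abundant member with reads. Its levels were 2.81, 2.78 and 3.84 CPM in combination libraries, 2.92, 2.68 and 4.48 in chaetocin libraries, 2.10, 2.64 and 3.38 in MLN8237 libraries and 2.33, 2.04 and 1.70 in vehicle libraries. Chaetocin-containing libraries all lay above the vehicle libraries, and the libraries numbered 3 were the highest of each treated group. The log2 fold change against vehicle was 0.64 ± 0.244 with the combination (edgeR adjusted p = 0.0541), which did not pass, and 0.73 ± 0.244 with chaetocin (edgeR adjusted p = 0.0433), which did. Without chaetocin replicate 3 the chaetocin value was 0.46 (edgeR adjusted p = 0.215), and 9 of 19 alternatives ended that call, which also included leaving out chaetocin replicate 1, combination replicate 1 or 2, any vehicle replicate, or MLN8237 replicate 2. CDKN1C had 95 to 259 reads per library.

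CDKN1A, the gene for p21 and the standard readout of checkpoint signalling, varied most within the combination. The combination libraries held 58.1, 39.8 and 73.9 CPM, the chaetocin libraries 35.8, 40.8 and 53.6, the MLN8237 libraries 41.9, 40.3 and 51.0, and the vehicle libraries 40.01, 37.8 and 43.4. Combination replicates 1 and 3 were above all 3 vehicle libraries, whereas replicate 2 was among them. The means were 57.3 ± 17.04 with the combination, 43.4 ± 9.19 with chaetocin, 44.4 ± 5.79 with MLN8237 and 40.4 ± 2.82 with vehicle (CPM, SD, n = 3 each). The log2 fold change of the combination over vehicle was 0.50 ± 0.196 and did not pass (edgeR adjusted p = 0.0589). Without combination replicate 2 it was 0.70 and passed (edgeR adjusted p = 0.00687), and without combination replicate 3 or 1 it did not; over all libraries left out, adjusted p ran from 0.00687 to 0.282. Leaving out chaetocin replicate 3 (0.49) or MLN8237 replicate 3 (0.49) also brought it under the threshold. Chaetocin alone gave 0.10 (95% interval -0.32 to 0.53), and without chaetocin replicate 3 the sign turned to -0.08. The MLN8237 difference was 0.13 (-0.29 to 0.56).

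CDKN1B, the gene for p27, whose protein is controlled mostly through degradation, had the narrowest range. It stood at 30.4, 29.3 and 30.5 CPM in combination libraries, 29.8, 29.3 and 29.0 in chaetocin libraries, 31.7, 33.9 and 31.6 in MLN8237 libraries and 34.5, 30.2 and 28.6 in vehicle libraries. Groups overlapped with vehicle in every comparison. The log2 difference from vehicle was -0.05 with the combination (95% interval -0.24 to 0.14), -0.08 with chaetocin (-0.27 to 0.10) and 0.06 with MLN8237 (-0.13 to 0.25), so these intervals ran from 0.83-fold to 1.19-fold. The signs of these small values turn under some alternatives: to 0.02 for the combination with a stricter filter or without vehicle replicate 1, and to -0.0017 for MLN8237 without vehicle replicate 3.

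**Figure D1:**
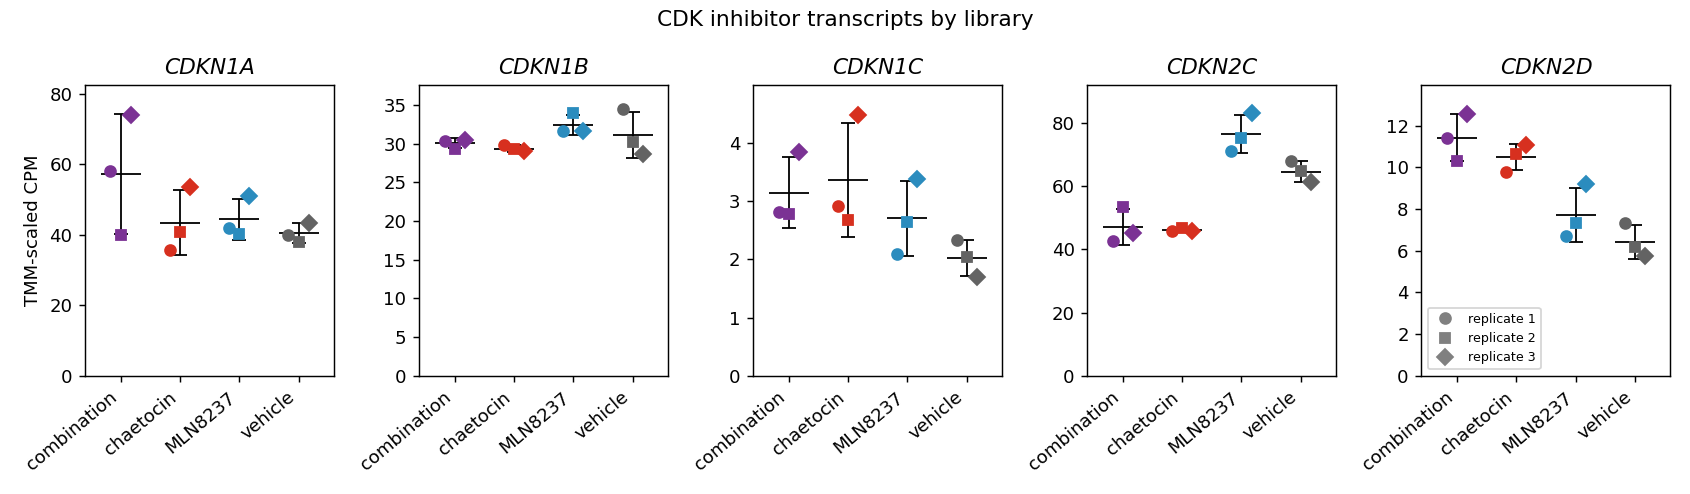
TMM-scaled CPM of the 5 members with reads in each of the 12 libraries, one panel per gene with its own axis from 0, points shaped by replicate number, with group means (long lines) and SD (error bars, n = 3). CDKN2D is higher and CDKN2C lower in all 6 libraries with chaetocin, and CDKN1A is spread from 39.8 to 73.9 CPM with the combination.

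Counting the members, the combination raised 1 (CDKN2D) and lowered 1 (CDKN2C) of the 5 tested against vehicle, and chaetocin raised 2 (CDKN2D, CDKN1C) and lowered 1 (CDKN2C). Over all 22831 genes, the combination called 38.5% (20.1% higher, 18.3% lower) and chaetocin 24.5% (12.6% higher, 11.9% lower), and 5 members are too few to set a share against these. MLN8237 called 0 members in edgeR, and 0.00438% of all genes, with 0 members passing in DESeq2. In edgeR 1 member (CDKN2C) was at an unadjusted p under 0.05, as were 1938 of all 22831 genes. Groups did not overlap for 3 members in combination against vehicle (all genes 27.5% higher and 27.4% lower), for 3 in chaetocin against vehicle (24.2% and 23.9%), and for 1 in MLN8237 against vehicle (6.96% and 7.06%). The comparisons with vehicle share the vehicle libraries, so they are set side by side and are not independent.

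Adding MLN8237 to chaetocin changed no member past the threshold. Combination minus chaetocin was 0.12 for CDKN2D (95% interval -0.18 to 0.42), 0.03 for CDKN2C (-0.18 to 0.24), -0.09 for CDKN1C (-0.61 to 0.42), 0.03 for CDKN1B (-0.15 to 0.22) and 0.40 for CDKN1A (-0.02 to 0.83). The CDKN1A value was 0.18 without combination replicate 3, and 0.60 without combination replicate 2; that of CDKN2D was 0.05 without combination replicate 3 and 0.06 without chaetocin replicate 1. In this comparison edgeR called 0% of all genes (2677 at an unadjusted p under 0.05), DESeq2 called 296, and edgeR without combination replicate 2 called 573; DESeq2 called 0 members. Groups overlapped for all 5 members, against 9.54% of all genes higher and 9.15% lower with no overlap. For CDKN2C the sign turned to -0.08 without combination replicate 2, and for CDKN1C to 0.16 without chaetocin replicate 3. Adding chaetocin to MLN8237 did change members: CDKN2D was 0.57 ± 0.142 higher in log2 terms (edgeR adjusted p = 0.00584) and CDKN2C fell by 0.70 (edgeR adjusted p = 0.000128), with 45.9% of all genes called (23.3% higher, 22.7% lower). Libraries did not overlap there for 3 members, CDKN1B and CDKN2C on the lower side and CDKN2D on the higher (all genes 24.5% lower and 26.8% higher). CDKN1A differed by 0.37 there (-0.06 to 0.79; edgeR adjusted p = 0.141), and without combination replicate 2 by 0.56 (edgeR adjusted p = 0.0185). The interaction, which is the combination's log2 change minus the sum of the changes with each drug, passed for 0 members and 0% of all genes in edgeR (3108 at an unadjusted p under 0.05), and DESeq2 called 15 genes and 0 members. Its value was 0.27 for CDKN1A (-0.33 to 0.87), -0.22 for CDKN2C (-0.51 to 0.08), -0.15 for CDKN2D (-0.58 to 0.29) and -0.51 for CDKN1C (-1.25 to 0.23). None passed, and single libraries moved them: CDKN1A ran from 0.04 (without combination replicate 3) to 0.47 (without combination replicate 2), CDKN2C from -0.32 to -0.16, CDKN2D from -0.26 (without vehicle replicate 1) to -0.01 (without MLN8237 replicate 3) and CDKN1C from -0.68 to -0.25 (without chaetocin replicate 3).

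**Figure D2:**
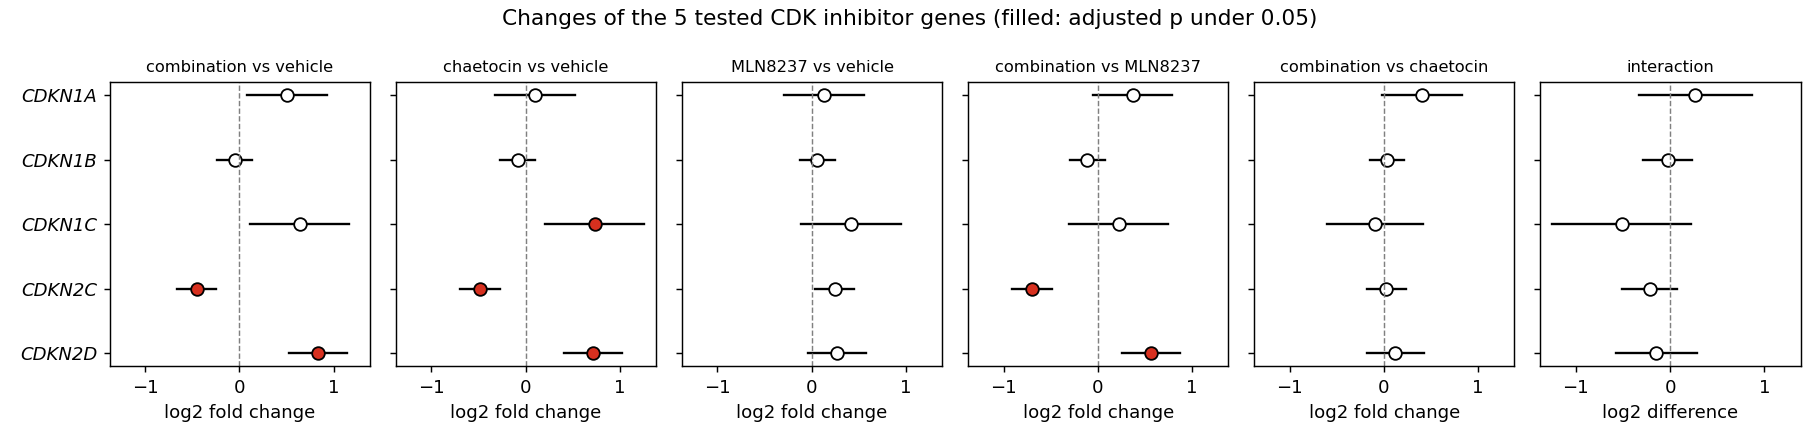
log2 fold change (points) with 95% interval (lines) of the 5 tested members in the 5 comparisons and the interaction; filled points have an edgeR adjusted p under 0.05. CDKN2C and CDKN2D sit on opposite sides of 0 with the combination and with chaetocin against vehicle, and all intervals of combination against chaetocin cross 0.

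Set per length (RPKM), the order of the inhibitor transcripts differed between groups. With the combination CDKN1A led at 19.2 ± 5.71 RPKM, then CDKN2C at 14.2 ± 1.68, CDKN1B at 10.7 ± 0.228, CDKN2D at 7.61 ± 0.749 and CDKN1C at 1.22 ± 0.233 (SD, n = 3 each). With vehicle the order was CDKN2C at 19.5 ± 0.999, CDKN1A at 13.5 ± 0.944, CDKN1B at 11.1 ± 1.077, CDKN2D at 4.27 ± 0.545 and CDKN1C at 0.782 ± 0.122. The first 2 genes overlapped between libraries with the combination (13.3 to 24.8 for CDKN1A, 12.9 to 16.1 for CDKN2C) and with chaetocin (11.98 to 18.0 and 13.8 to 14.1), whereas no neighbours in the order overlapped with MLN8237 or vehicle. The authors' deposited RPKM gave the same order in each group. The CDKN2D-to-CDKN2C ratio per length was 0.543 ± 0.101 with the combination, 0.502 ± 0.0303 with chaetocin, 0.222 ± 0.0194 with MLN8237 and 0.219 ± 0.0172 with vehicle. This ratio was chosen after the values were seen and has no test; its 6 values with chaetocin (0.428 to 0.612) lay above the other 6 (0.207 to 0.244). The summed level of all members was 52.9 ± 5.74 RPKM with the combination, 47.2 ± 3.63 with chaetocin, 55.7 ± 4.60 with MLN8237 and 49.1 ± 2.40 with vehicle.

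**Figure D3:**
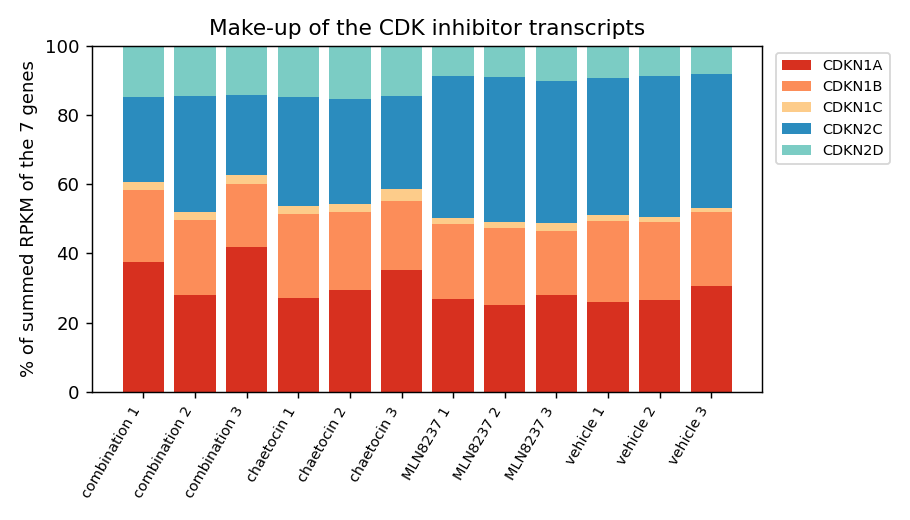
Share of the summed RPKM of the 7 genes taken by each member in each library; CDKN2A and CDKN2B are at 0. CDKN2C takes 27.2% with the combination, 29.6% with chaetocin, 41.5% with MLN8237 and 39.6% with vehicle (group means), and CDKN2D 14.4%, 14.8%, 9.20% and 8.67%.

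CDKN2A (hg19 chr9:21967751-21995300) and CDKN2B (chr9:22002902-22009362) had 0 reads in all 12 libraries. A count of 0 allows up to 3 reads, which is 0.0457 to 0.0658 CPM per library, or 0.0104 to 0.0150 RPKM for CDKN2A and 0.0113 to 0.0162 RPKM for CDKN2B; these limits cover counting error only. No treatment brought reads to either gene at this depth, and CDKN2A is known to be deleted in PANC-1. Both lie under a long clone-named transcript that also runs over MTAP, and both overlap the antisense CDKN2B-AS1, which had 8 reads in total, and no source used here states whether counting used strand. Between MTAP and DMRTA1, a stretch of 515.2 kb with 7 genes of the table, 5 had no read anywhere, while the pseudogene UBA52P6 had 2 to 14. Of the 58 genes from IFNB1 to ELAVL2, 25 had no read anywhere, against 5 of 7 in that stretch. Most of the genes without reads lay outside that stretch, as did most of the genes, several interferon alpha genes among them. The genes at its edges had reads: MTAP, encoding methylthioadenosine phosphorylase, had 343 to 594 reads, and DMRTA1 99 to 257, and KLHL9 farther out had 534 to 1180. The clone-named transcript carried 97.3% to 100% of the count of MTAP in each library, so its reads cannot be told from those of MTAP. MIR31HG, a long noncoding RNA gene on the other side of MTAP, had 418, 222 and 321 reads in combination libraries and 271, 322 and 327 in chaetocin libraries, against 108, 63 and 69 in MLN8237 libraries and 94, 104 and 137 in vehicle libraries, without overlap between libraries with and without chaetocin.

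**Figure D4:**
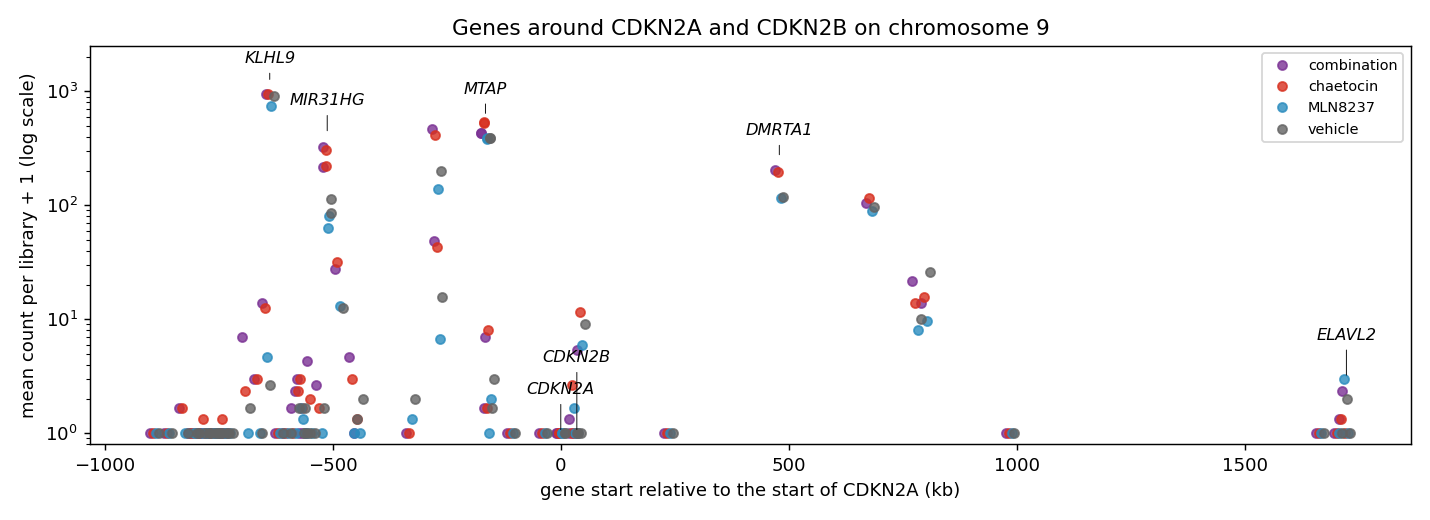
Mean raw count per library plus 1 (log axis) of each gene between IFNB1 and ELAVL2, by gene start in kb from the start of CDKN2A, one point per gene and group. CDKN2A and CDKN2B lie at the floor, MTAP and DMRTA1 above it on both sides.

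Genes that act with or on the inhibitors were read from lists, and counts are given for the combination and for chaetocin against vehicle. MLN8237 against vehicle called 0 genes of any list. Every list count here and in the next paragraphs is to be read beside the share over all 22831 genes. That share was 20.1% higher and 18.3% lower with the combination (median 0.02), and 12.6% and 11.9% with chaetocin (median 0.01). No list was tested as a set. Each list gene said to have risen or fallen had an edgeR adjusted p under 0.05 in that comparison, and in all 19 alternatives as well. Among the direct partners of the INK4 proteins, the CDK4, CDK6 and D-type cyclin genes, 0 of 5 passed with the combination or with chaetocin, and without MLN8237 replicate 3 or 1 chaetocin called 3 or 1 higher, while without combination replicate 2 the combination called 1 lower. The CIP/KIP partners (cyclins A, B and E, CDK1, CDK2 and the CDK-activating kinase) had 5 higher and 1 lower of 11 with the combination (median log2 change 0.30, against 0.02 over all genes) and 3 higher and 0 lower with chaetocin (0.21, against 0.01). CCNE1, the cyclin E1 gene whose CDK2 complex is the main CIP/KIP target, averaged 42.4 ± 3.68 CPM with the combination, 43.3 ± 2.28 with chaetocin, 31.3 ± 1.44 with MLN8237 and 29.8 ± 0.804 with vehicle (SD, n = 3 each), a log2 change of 0.51 (edgeR adjusted p = 0.000602) and 0.54 (0.000841) against vehicle. CDK7, the catalytic subunit of the CDK-activating kinase, rose by 0.57 with the combination and 0.50 with chaetocin. The 1 lower with the combination was CDK2 itself, at -0.37 (edgeR adjusted p = 0.0169). With chaetocin CDK2 differed by -0.13 (edgeR adjusted p = 0.424). The combination's 5 became 8 higher without MLN8237 replicate 3, and its 1 lower became 0 without combination replicate 1 or 3 or vehicle replicate 1 or 2, and 2 without combination replicate 2 or MLN8237 replicate 1 or 3. The retinoblastoma family gave 0 of 4 entries for 3 symbols in either comparison, and without MLN8237 replicate 3 the combination called 1 lower. Other settings moved these counts too. The INK4 partners had 3 higher with chaetocin when only the groups compared were fitted, 2 with the replicate block and 1 with DESeq2 or without the treated libraries numbered 3, and 1 lower with the combination under the block. The CIP/KIP partners had 5 higher with chaetocin under a stricter filter, with only the groups compared or without the treated libraries numbered 3, and 8 higher with the combination without those libraries; 2 were lower with the combination under no filter, only the groups compared, the block or without those libraries. The retinoblastoma family had 1 lower with the combination under only the groups compared, the block or without the treated libraries numbered 3, and 1 higher in the last.

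Genes that act on the turnover of these proteins showed 2 higher and 4 lower of 18 with the combination (median -0.03) and 2 higher and 1 lower with chaetocin (0.06). FZR1, an activator of the anaphase-promoting complex that keeps SKP2 low and so protects p27, fell by 0.33 as a log2 change with the combination (edgeR adjusted p = 0.00644) and differed by -0.18 with chaetocin (edgeR adjusted p = 0.123), and MDM2, a ubiquitin ligase, rose by 0.56 with the combination and 0.49 with chaetocin; in the table MDM2 overlaps CPM and FZR1 overlaps MFSD12. Without combination replicate 1 the combination had 1 lower, without vehicle replicate 1 it had 2 lower, and without combination replicate 2 or 3, chaetocin replicate 2 or vehicle replicate 2 or 3 it had 1 higher. Chaetocin had 1 higher without any one of its own or the vehicle libraries, combination replicate 2 or MLN8237 replicate 2, 0 lower without any one of its own libraries, combination replicate 1 or 2, vehicle replicate 2 or 3 or MLN8237 replicate 2, and 2 lower without MLN8237 replicate 3. The combination had 4 higher with DESeq2 or a stricter filter, 5 higher without the treated libraries numbered 3 and 1 higher with no filter. Chaetocin had 0 lower with either other filter, and 2 lower with only the groups compared or without the treated libraries numbered 3.

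Regulators of transcription of the inhibitor genes changed in both directions. EGR1, an immediate-early zinc-finger factor, averaged 33.6 ± 9.38 CPM with the combination, 12.7 ± 1.39 with chaetocin, 4.26 ± 0.546 with MLN8237 and 2.93 ± 0.899 with vehicle (SD, n = 3 each), a log2 change of 3.52 with the combination and 2.11 with chaetocin (edgeR adjusted p = 1.41e-06 and 5.21e-05). KLF4, a factor known to activate CDKN1A, averaged 10.3 ± 2.02, 7.81 ± 1.41, 3.59 ± 1.45 and 3.04 ± 0.455 CPM in the same order, with log2 changes of 1.76 and 1.36. KLF10 rose by 0.60 with the combination and differed by 0.40 with chaetocin (edgeR adjusted p = 0.0149). Over the list, 10 of 30 were higher and 8 lower with the combination (median -0.12), and 6 higher and 3 lower with chaetocin (-0.10). The combination's lower count was 5 without combination replicate 1 or vehicle replicate 3. Chaetocin had 3 higher without chaetocin replicate 3 or vehicle replicate 1 or 2, 0 lower without chaetocin replicate 3 and 8 lower without MLN8237 replicate 3. The stricter filter left 5 lower with the combination. With only the groups compared chaetocin had 10 higher and 9 lower, and its lower count was 5 with DESeq2, 7 with the replicate block and 6 without the treated libraries numbered 3.

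Proteins that silence INK4 and CIP/KIP loci include the Polycomb complexes, histone deacetylases and the methyltransferases SUV39H1 and EHMT2. Of 15 such genes, 1 was higher and 5 lower with the combination (median -0.13), and 1 higher and 2 lower with chaetocin (-0.09), the lower count being 4 without combination replicate 2 and 5 without MLN8237 replicate 3. The higher count with the combination was 2 under the stricter filter, and with chaetocin it was 0 with no filter and 2 without the treated libraries numbered 3, while 6 were lower with only the groups compared. The 1 higher in each comparison was EZH2, a Polycomb methyltransferase. EZH2 differed by 0.35 on the log2 scale with the combination (edgeR adjusted p = 0.00202) and by 0.30 with chaetocin (edgeR adjusted p = 0.00869). With no filter the chaetocin value did not pass (edgeR adjusted p = 0.0648). HDAC1 fell by 0.51 with the combination and fell by 0.43 with chaetocin on the log2 scale. RING1, a Polycomb ubiquitin ligase, fell by 0.88 with the combination and fell by 0.57 with chaetocin. EHMT2, a histone H3 lysine methyltransferase that overlaps its antisense gene in the table, fell by 0.49 with the combination and differed by -0.21 with chaetocin (edgeR adjusted p = 0.139). SUV39H1, the enzyme chaetocin is used against, differed by -0.33 with the combination (edgeR adjusted p = 0.0206), which did not pass without combination replicate 1 or 3, and by -0.26 with chaetocin (edgeR adjusted p = 0.0792), which passed without combination replicate 2 or MLN8237 replicate 3. TXNRD1, the gene for cytosolic thioredoxin reductase, rose by 1.13 with the combination and by 1.27 with chaetocin. AURKA, the target of MLN8237, averaged 246.5 ± 22.7 CPM with the combination, 204.4 ± 10.1 with chaetocin, 244.7 ± 9.12 with MLN8237 and 206.1 ± 6.09 with vehicle (SD, n = 3 each), and its call with the combination (0.26, edgeR adjusted p = 0.0298) was lost in 7 of 19 alternatives.

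Genes of senescence and its secretions had 3 higher and 3 lower of 7 tested with the combination (median 0.14) and 1 higher and 3 lower with chaetocin (0.19). IL1A, a secreted cytokine, was low throughout but rose, with 0.936 ± 0.292 CPM in combination libraries, 0.591 ± 0.111 in chaetocin, 0.162 ± 0.0208 in MLN8237 and 0.169 ± 0.0254 in vehicle libraries (log2 changes 2.45 with the combination and 1.78 with chaetocin). Chaetocin had 2 higher without combination replicate 1, vehicle replicate 3 or MLN8237 replicate 3, 0 lower without chaetocin replicate 2 and 1 lower without chaetocin replicate 3 or vehicle replicate 3. RLE scaling, no filter, DESeq2, only the groups compared and the block also gave 2 higher with chaetocin, and no filter gave 1 lower. Of 8 proliferation genes, 3 were higher and 0 lower with the combination (median 0.07) and 2 higher and 0 lower with chaetocin (0.18), the second count being 1 without any one chaetocin library, vehicle replicate 1 or 2 or MLN8237 replicate 2. MKI67, a marker of cycling cells that belongs to both lists, averaged 655.8 ± 105 CPM with the combination, 520.7 ± 11.2 with chaetocin, 320.7 ± 23.1 with MLN8237 and 395.0 ± 78.8 with vehicle (SD, n = 3 each; log2 change 0.73, edgeR adjusted p = 0.00135), and E2F1, a factor downstream of the retinoblastoma protein, differed by 0.19 with the combination (edgeR adjusted p = 0.232) and rose by 0.58 with chaetocin (edgeR adjusted p = 0.00353). The replicate block gave 1 proliferation gene lower with chaetocin.

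CDKN1C lies in the imprinted domain on 11p15, and its neighbours were read beside it. With the combination 2 of 11 were higher and 2 lower (median -0.06), and with chaetocin 1 higher and 1 lower (-0.002). H19, an imprinted noncoding RNA gene, fell by 1.83 on the log2 scale with the combination and fell by 1.53 with chaetocin, with 59.7 ± 11.5 CPM, 73.4 ± 9.68 CPM, 196.7 ± 15.1 CPM and 212.1 ± 17.3 CPM in combination, chaetocin, MLN8237 and vehicle libraries (SD, n = 3 each).  The combination's higher count was 1 without combination replicate 1 or 3 or vehicle replicate 2 or 3 and 0 without vehicle replicate 1, and its lower count was 1 without combination replicate 1 or 2 or vehicle replicate 1. Chaetocin's higher count was 0 without chaetocin replicate 2 or 3 or any one vehicle library, and its lower count was 2 without chaetocin replicate 3 or with DESeq2 and 3 with the replicate block or without the treated libraries numbered 3. The combination's lower count was 1 with the stricter filter and 4 with the block.

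The genes whose log2 CPM over the 12 libraries was most like that of each called member were named by Pearson correlation, as a description with no test, since the libraries fall into those with and without chaetocin. CDKN2D was closest to ZFAND2A (0.986), COA5 (0.985) and TRMT6 (0.985). CDKN2C was closest to SIRT3 (0.989), NECAP2 (0.985) and NDFIP1 (0.985). CDKN1C was closest to AC005253.4 (0.959), ADI1 (0.955) and LARP6 (0.955).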

How the data were processed

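RNA-seq was read from 12 libraries of PANC-1 cells, 3 per group. The authors deposited 1 table of raw counts per gene, with RPKM values and gene lengths beside them per the file headers. The submitters' processing notes name CASAVA 1.9, TopHat 12.0.6, HTSeq and hg19, with no roles or order; no source used here states strandedness. The deposited RPKM was used only to check the order of genes. The deposited gene length (another quantity of the authors' table, in bases) is not coding length alone, since 33.7% of lengths are multiples of 3.

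Counts were scaled by TMM, filtered by group with edgeR's filterByExpr (22831 of 57773 genes kept) and tested with edgeR 4.0.16 (R 4.3.3; robust quasi-likelihood F test over all 12 libraries, group as the term), with Benjamini-Hochberg adjustment over all tested genes and a threshold of 0.05. CPM and RPKM printed here use TMM library sizes, and log2 CPM a prior count of 2. SE is the size of the log2 change over the root of F. The fit was tested on simulated data. Alternatives were RLE scaling, no filter, a filter of 1 CPM in 6 libraries, DESeq2 1.42.0, only the groups compared, a replicate block, each library left out, and the treated libraries numbered 3 left out. Same-numbered libraries did not all deviate together. Correlations were -0.153 to 0.139 with vehicle libraries and -0.007 to 0.462 between treated groups, where those numbered 3 gave 0.436 to 0.462. Numbers were not taken as pairs in the main fit.

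The members and lists were chosen with earlier results of these data known. Genes named from a list were drawn from the 3 with the smallest p among those that passed, for the combination and for chaetocin against vehicle. Added to these were SUV39H1, AURKA and TXNRD1 as targets of the compounds, CDK2, and neighbours of CDKN1C that passed. Genes of the 9p21 interval with over 10 reads in a library were also drawn on. So were, for each called member, the 3 genes of at least 5 mean CPM most correlated with it. Promoter windows came from RefSeq (GRCh38.p14) and gene positions from the hg19 table. Some items of these lists are not reported here.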

Additional observations from a re-analysis of the deposited data

How the results depend on the processing

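The calls of CDKN2C and CDKN2D against vehicle with chaetocin and with the combination, and of the combination against MLN8237, kept their direction and side of the threshold in all 19 alternatives. Of the 565 recomputed log2 changes of the members, 527 kept both. CDKN1C with chaetocin did not pass without the 3 treated libraries numbered 3 (0.48), and single libraries left out gave 0.46 to 0.87. CDKN1A with the combination passed with a stricter filter (0.57), DESeq2 (0.52), only the groups compared (0.51) and the replicate block (0.47, edgeR adjusted p = 0.00952), and ran from 0.28 to 0.70 over single libraries left out. CDKN1C with the combination passed with no filter (0.62), the stricter filter (0.71), DESeq2 (0.66), only the groups compared (0.64), the replicate block (0.61) and without the treated libraries numbered 3 (0.48), and ran from 0.47 to 0.74. CDKN1A in combination against MLN8237 passed with the replicate block (0.35) and ran from 0.14 to 0.56. The block changed no other member's call. Deviations from the group mean correlated at 0.436 to 0.462 between treated libraries numbered 3. Between same-numbered treated and vehicle libraries they correlated at -0.153 to 0.139. Whether same-numbered treated libraries share a batch was not tested. Signs turned for values near 0: CDKN1A with chaetocin to -0.069 without the treated libraries numbered 3, CDKN1B with the combination to 0.018 (stricter filter), its interaction to 0.0096 (stricter filter), and CDKN1C in combination against chaetocin to 0.0032 without the treated libraries numbered 3. Ranges over single libraries left out were -0.084 to 0.22 for CDKN1A with chaetocin, -0.0017 to 0.14 for CDKN1B with MLN8237, -0.12 to 0.017 for CDKN1B with the combination, -0.26 to 0.16 for CDKN1C and -0.079 to 0.094 for CDKN2C in combination against chaetocin, and -0.11 to 0.025 for the CDKN1B interaction. AURKA with chaetocin, at -0.012, turned to 0.0004 with RLE scaling and with DESeq2, 0.025 with the stricter filter and 0.037 without the treated libraries numbered 3, and ran from -0.044 to 0.022 over single libraries left out. Counts of genes called ran from 3704 (without vehicle replicate 2) to 7551 for chaetocin, 0 to 1 for MLN8237 (0 with the stricter filter or only the groups compared) and 0 to 573 for combination against chaetocin over single libraries left out. Combination against chaetocin called 36 with no filter and 296 with DESeq2, and the interaction 2 and 15. The cause of these shifts was not tested. Depth bears on CDKN2B, where 0 reads set only an upper limit, while CDKN2A is known to be deleted in PANC-1.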
